A study of Mus musculus with 4 samples.

Results

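The comparison was between 2 brain sections in which many capture spots held choroid plexus transcripts, K73-6 and K75-2, and 2 sections in which few did, K73-8 and K75-1. These are all 4 sections of the series, so each set held 2 of 4. The sets were chosen on measured values, the spots with transcripts of 7 choroid plexus genes (Folr1, Kcnj13, Clic6, Kl, Slc4a5, Prlr and F5), and not on a label. To ask what else differed between the cuts, only spots with at least 500 unique molecular identifiers (UMIs, 1 per captured transcript) and 0 UMIs of the 7 genes were used. There were 5645 such marker-free spots among 7620 spots with at least 500 UMIs, and their counts were summed per section.

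The 4 sections were 10x Genomics Visium libraries of fresh frozen brain from mice of the genotype Nf1+/-, with 1 inactive copy of Nf1 in every cell, and the study kept its mice on a C57/BL6 background. All 4 carried this genotype, no wild-type section was used here, and neither the age of each mouse nor the number of mice behind the 4 sections was stated. A Visium spot is a small disc of tissue that can hold several cells, so a summed section measures RNA from a mixture, in which fewer cells of a type and less RNA per cell cannot be told apart. Spot positions and tissue images were not used here.

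The choroid plexus is a sheet of epithelium that hangs in the brain ventricles and secretes cerebrospinal fluid. Whether a coronal section contains it depends on where along the front-to-back axis the brain was cut. Neurons and astrocytes of the cortex, striatum, septum, thalamus and hypothalamus each express their own genes, so the genes of the tissue around the plexus can describe the level of a cut.

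By the values that chose them, K73-6 had 137 spots with at least 3 of the 7 genes (8.91% of its spots, exact 95% interval 7.54 to 10.5) and K75-2 had 66 (4.61%, 3.58 to 5.83). K75-1 had 5 (0.218%, 0.0708 to 0.508) and K73-8 had 0 of 2358, with an upper exact limit of 0.156%. These intervals cover counting error only. The requirement of 0 UMIs left out 54.9% of the spots of K73-6 and 29.6% of those of K75-2, against 18% in K73-8 and 12.3% in K75-1. In the last pair of sections most of that loss came from Clic6 alone, which was detected in 307 spots of K73-8 and 201 of K75-1. The marker-free spots numbered 693 in K73-6, 1008 in K75-2, 1933 in K73-8 and 2011 in K75-1, with 9452102 to 29307076 UMIs per section and median depths of 8748 to 14823 UMIs per spot. Levels are given below as counts per 1000000 UMIs (CPM) of these sums.

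Few genes stood clearly apart between the sets. A gene was called higher or lower when the closest sections of the 2 sets were at least 2-fold apart, a criterion of distance and not a test, because measured values had defined the sets. Of 13429 genes with at least 100 UMIs over the 4 sections, 9 were higher in the sections with many choroid plexus spots (0.0670% of genes tested) and 4 were lower (0.0298%). This filter summed both sets, so a gene could pass on 1 set alone, as Gh, Prl, Igkc and Igha would have. K73-8 and K75-1 also held more UMIs (29307076 and 19013594) than K73-6 and K75-2 (9452102 and 13828070). The counts of higher and lower genes are therefore not directly comparable. By the weaker criterion that the sets did not overlap, 1556 genes were higher (11.6%) and 2953 were lower (22.0%), while 8920 overlapped. The mean CPM of the sets differed by more than 2-fold for 70 genes (0.521%). Between single sections of the same set, the same fold separated 461 genes for K73-6 and K75-2, and 121 genes for K73-8 and K75-1. Between single sections of opposite sets, 115 genes were higher and 159 lower in K73-6 than in K73-8, and 63 were higher and 132 lower in K75-2 than in K75-1. In the sections K73-6 and K75-1 the Y-linked gene Ddx3y was at 26.8 and 24.3 CPM and Xist at 0, whereas K75-2 and K73-8 had Xist at 21.2 and 37.9 CPM and Ddx3y at 0. Each set thus held 1 section of either pattern, and the sections came from at least 2 animals.

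**Figure D1:**
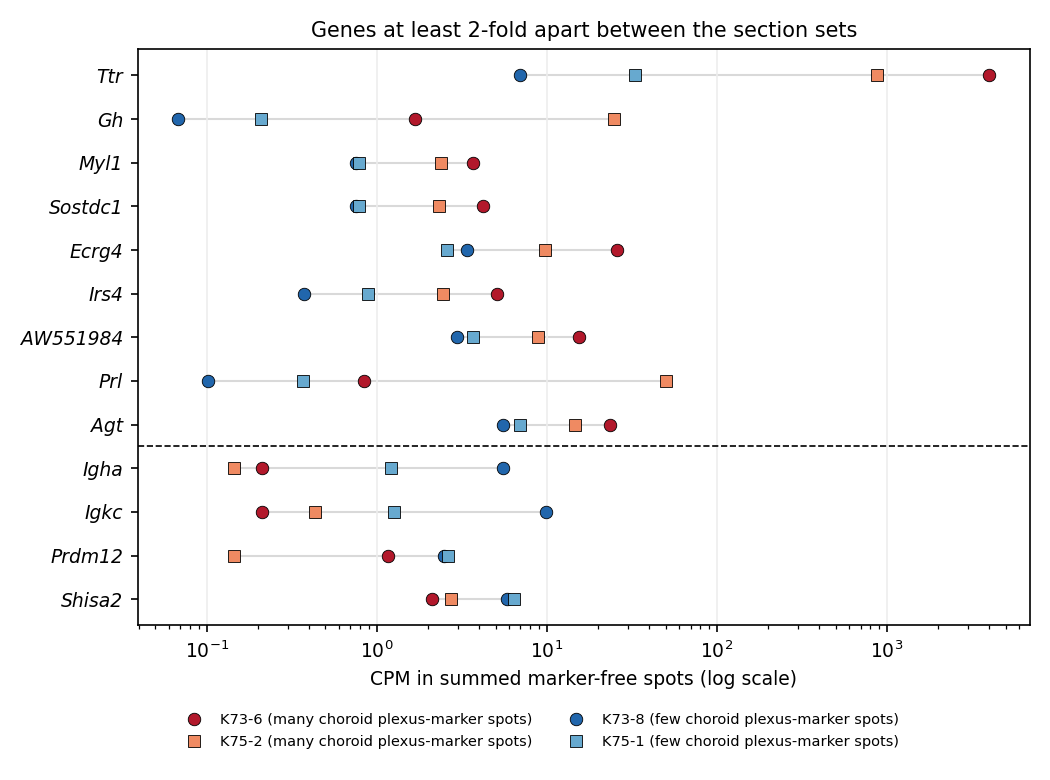
CPM on a log axis of the 13 genes at least 2-fold apart, with 1 point per section (red and orange, many choroid plexus-marker spots; blue, few; circles, K73 titles; squares, K75 titles). Above the dashed line both warm points lie right of both blue points, and below it they lie left. Gh and Prl are far higher in K75-2 than in K73-6.

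Choroid plexus transcripts themselves remained in the marker-free spots. Ttr, the gene of transthyretin, the thyroid hormone carrier that the plexus secretes in bulk, was at 3990 CPM in K73-6 and 874 in K75-2, against 6.99 in K73-8 and 32.9 in K75-1. Both sections of the first set were high and the sets were 26.6-fold apart at their closest. Ttr was detected in 99.9% and 98.7% of the marker-free spots of K73-6 and K75-2, and in 6.93% and 20% of those of K73-8 and K75-1. Ecrg4, which encodes the secreted peptide precursor augurin, was at 25.8 and 9.76 CPM against 3.41 and 2.58. Sostdc1, an inhibitor of BMP and Wnt signalling, was at 4.23 and 2.31 CPM against 0.751 and 0.789. Enpp2, the gene of the lysophospholipase autotaxin, which oligodendrocytes also express, was at 281 and 220 CPM against 127 and 142, a gap of 1.55-fold that did not meet the criterion. Rarres2, which encodes chemerin, overlapped at 20 and 11.6 CPM against 23 and 17.8.

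Of 14 choroid plexus genes that the spot filter did not use, 8 had enough counts to be compared. Of these, 3 (Ttr, Ecrg4 and Sostdc1) were at least 2-fold higher, 4 (with Enpp2) were higher without overlap, beside 11.6% of all genes tested, and 4 overlapped. Their median log2 ratio was 1.00, beside -0.04 over all genes tested. The 6 others had under 100 UMIs in all, among them the tight junction gene Cldn2 with 2.86 and 0.94 CPM against 0.0341 and 0.105, and Tmem72 with 2.86 and 0.579 CPM against 0.0341 and 0.0526. The filter therefore lowered the plexus signal without removing it, and every other difference below stands beside a residue of plexus RNA in K73-6 and K75-2 whose part in it was not tested. When all spots with at least 500 UMIs were kept, 49 genes were higher and 6 were lower. The 49 include the filter genes Slc4a5, F5, Kl, Kcnj13, Folr1 and Prlr, whose difference was fixed by the choice of the sets. Ttr then reached 12200 and 3740 CPM against 7 and 72.9. Enpp2 then met the criterion, at 641 and 401 CPM against 122 and 140, a gap of 2.85-fold.

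Irs4, Agt and AW551984 were also among the 9 genes called higher. Irs4, an insulin receptor substrate, was at 5.08 CPM in K73-6 and 2.46 in K75-2, against 0.375 in K73-8 and 0.894 in K75-1. These values rest on 48, 34, 11 and 17 UMIs. Agt, angiotensinogen, which astrocytes of the hypothalamus, thalamus and brainstem express more than those of the cortex, was at 23.6 and 14.7 CPM against 5.53 and 6.94. Both genes were higher in both sections with many choroid plexus spots, and the sets stayed at least 2-fold apart when all spots were kept. When spots with Tmem72, Otx2 or Sostdc1 were left out as well, Irs4 stayed at least 2-fold apart and Agt did not. AW551984, for which no function is given here, followed the same order with 15.4 and 8.82 CPM against 2.97 and 3.68.

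Slc17a6 encodes the vesicular glutamate transporter of thalamic, hypothalamic and midbrain neurons. It was at 17.8 and 18.9 CPM against 9.52 and 10.7, which did not overlap and was a log2 ratio of 0.86, with 0.90 between the K73 sections and 0.82 between the K75 sections. Baiap3, a regulator of dense-core vesicle release that is abundant in hypothalamic neurons, was at 24.3 and 14.8 CPM against 9.49 and 8.52, a log2 ratio of 1.12. Neither reached the 2-fold gap. The GABA transporter gene Slc6a11 (75.3 and 59.4 CPM against 48.3 and 54.7) and the hyaluronan-binding gene Itih3 (26.2 and 16.5 against 11.6 and 14.5), both more abundant in ventral than in dorsal astrocytes, were also higher without overlap. On the same short list of regional astrocyte genes, Mfge8 and Gfap were lower without overlap, Mfge8 at 118 and 100 CPM against 168 and 130. Of the 5 genes on that list 3 were thus higher and 2 lower, beside 11.6% and 22.0% of all genes tested.

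Transcription factors of the diencephalon and brainstem were nearly absent in every section. None of the 11 on the list reached 100 UMIs. Their summed level was 3.17 CPM in K73-6 and 2.68 in K75-2, from 30 and 37 UMIs, and 0.751 in K73-8 and 0.684 in K75-1, from 22 and 13 UMIs. The first set was higher, mostly through Irx1 and Lhx5, and Lhx5 had 0 UMIs in both sections with few choroid plexus spots. The 12 midbrain and hindbrain genes gave no such order, with summed levels of 2.65 and 2.39 CPM against 2.63 and 2.26, and the serotonin transporter gene Slc6a4 was at or near 0 in all sections. Gbx2, a thalamic factor with 73 UMIs in all, was at 3.39 and 1.23 CPM against 0.444 and 0.579.

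The hypothalamus and thalamus lists as a whole did not follow these genes. Of 18 hypothalamic genes 6 were compared, 2 were higher without overlap (Baiap3 and Pomc), beside 11.6% of all genes tested, 1 was lower (Cartpt), beside 22.0%, and 3 overlapped. Their median log2 ratio of 0.51 was 0.83 between the K73 sections and 0.02 between the K75 sections, and became -0.18 without K73-6. The neuropeptide genes Hcrt, Oxt, Avp and Agrp were all under 2 CPM in each section, and Sim1 had 0 UMIs. Other members of the list had more counts than these in K73-6, with 71 UMIs of Trh, 46 of Nkx2-1 and 25 of Gal. With all spots kept, Trh was at 7.58 and 1.56 CPM against 3.73 and 4.13. Gal was then at 6.9 and 0.831 CPM against 0.486 and 1.36, and Nkx2-1 at 4.77 and 2.6 against 2.27 and 1.59. Pomc then overlapped, at 11.1 and 21.4 CPM against 6.27 and 17.4. In the marker-free spots Cartpt, a peptide precursor gene also used in the striatum, was at 53.2 and 49.6 CPM against 73.5 and 78.6. Of 16 thalamic genes 13 were compared, with 2 higher and 2 lower without overlap, beside the same shares of all genes, and a median log2 ratio of -0.03. Prkcd, the protein kinase C delta gene that marks relay thalamus and also parts of striatum and amygdala, was lower at 16.3 and 9.84 CPM against 20.7 and 21.5. The thalamic factor Shox2 had 2 UMIs over the 4 sections.

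**Figure D2:**
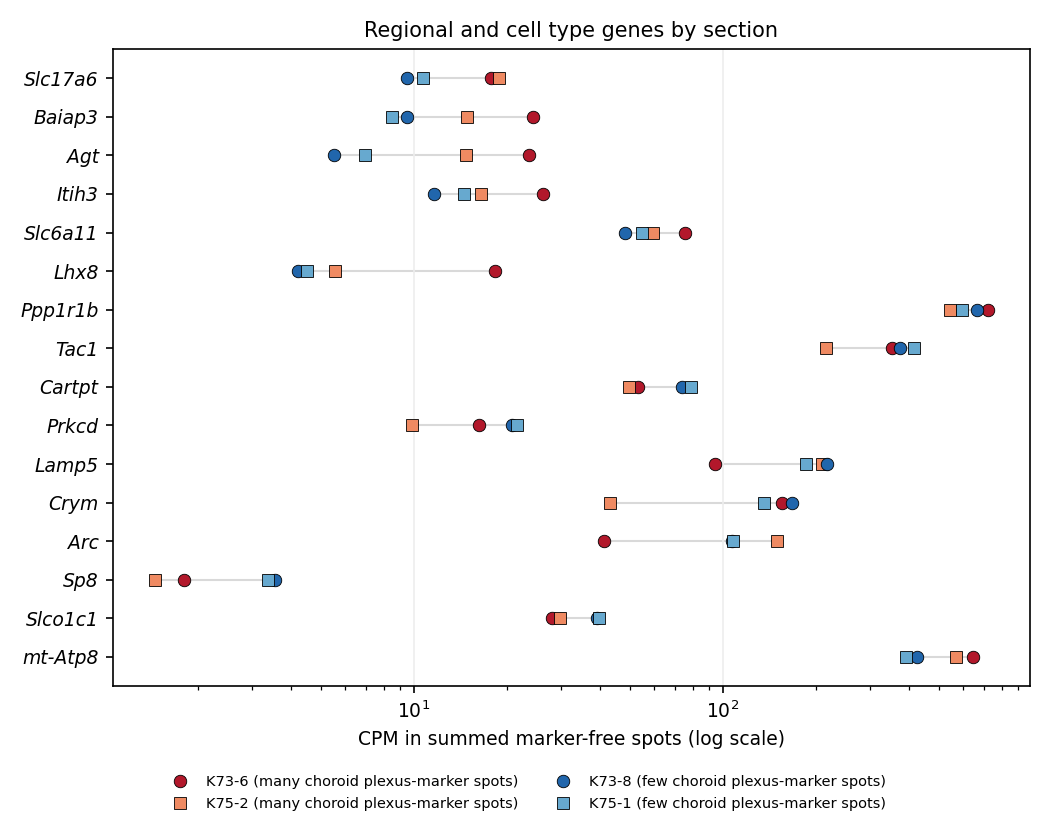
CPM on a log axis of 16 regional and cell type genes in the marker-free spots, with 1 point per section and colours as in the plot of the 13 separated genes. For Slc17a6, Baiap3, Agt and Itih3 both warm points lie right of both blue points, for Cartpt, Sp8 and Slco1c1 they lie left, and for Lhx8, Lamp5, Crym and Arc 1 of the warm points stands away from the other 3.

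All 4 sections were cuts with striatum. The 18 genes of striatal projection neurons were all compared, none was at least 2-fold apart, 3 were lower without overlap, beside 22.0% of all genes tested, and 15 overlapped, with a median log2 ratio of -0.13. Ppp1r1b, the gene of the dopamine-regulated phosphoprotein DARPP-32, was at 722 CPM in K73-6, 545 in K75-2, 663 in K73-8 and 594 in K75-1, so its levels ran through both sets. Penk, the enkephalin precursor gene, was at 1110 and 781 CPM against 1050 and 1170. The 3 genes without overlap were Drd1, Tac1 and Pdyn, and their lowest values were in K75-2, where Tac1 was at 216 CPM against 353 in K73-6. At an equal depth of 3000 UMIs per spot, at least 3 of the 18 genes were found in 80.6% of spots in K73-6 and 44.4% in K75-2, against 80.8% in K73-8 and 69.4% in K75-1. The share was lowest in K75-2 (exact interval 41.2 to 47.6%), and K75-1 lay between it and the other 2 sections. The interval covers counting within 1 section and not the spread between sections.

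Several genes of other regions were near 0. The hippocampal genes Lct and Iyd and the cerebellar genes Gabra6, Pcp2 and Fat2 were under 1 CPM in each section, as were the olfactory bulb genes Tbx21, Eomes and Scgn. Other members of these lists were not. The hippocampal list summed to 123.9 and 114.5 CPM against 130.9 and 141.7. The cerebellar list summed to 6.67 and 11.28 CPM against 10.95 and 10.73, and 60 of its 63 UMIs in K73-6 were Car8. Of 10 hippocampal genes compared, 9 overlapped. The olfactory bulb list had 3 genes with enough counts, of which 2 were lower without overlap, beside 22.0% of all genes tested, and 1 overlapped. Their median log2 ratio was -0.72, and the list summed to 15.2 and 30.7 CPM against 30.3 and 44.4. Sp8, a transcription factor of olfactory interneuron precursors, was at 1.8 and 1.45 CPM against 3.55 and 3.37. Igfbpl1, a marker of young neurons, was at 2.75 and 1.45 against 3.65 and 3.58. With all spots kept Igfbpl1 overlapped, at 5.07 and 2.28 CPM against 4.92 and 6.59, and Sp8 stayed lower, at 2.22 and 2.08 against 4.81 and 4.5. Of the 10 neuroblast genes 4 were lower without overlap and none was higher, with a median log2 ratio of -0.25, beside 22.0% of all genes tested. Of 8 telencephalic transcription factor genes 3 were lower without overlap and 5 overlapped, beside the same 22.0%, and their median log2 ratio was -0.64 between the K73 sections and 0.32 between the K75 sections. Lhx2, a transcription factor that patterns the telencephalon, was lower without overlap at 29.5 and 38 CPM against 48.3 and 41.1, and so was Emx2, another such factor, at 6.14 and 5.93 against 7.98 and 7.57.

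Upper layer genes of the cortex were lowest in K73-6 and did not separate the sets. Of 11 upper layer genes 10 overlapped, and the median log2 ratio was -0.80 between the K73 sections and 0.28 between the K75 sections. Lamp5, a marker of superficial layers, was at 94.5 CPM in K73-6 and at 209, 218 and 186 CPM in K75-2, K73-8 and K75-1. After thinning, upper layer genes were found in 3.59% of spots of K73-6 (exact interval 2.31 to 5.29) and in 9.57%, 8.17% and 6.41% of those of K75-2, K73-8 and K75-1. Deep layer genes did not follow this pattern. Of 13 compared, 3 were higher and 2 lower without overlap, beside 11.6% and 22.0% of all genes tested, and 8 overlapped. Their median log2 ratio was 0.08, with summed levels of 550 and 411.3 CPM against 522.2 and 511.3. Immediate early genes, which neurons switch on with activity, split the first set in the same way. Arc was at 41.3 CPM in K73-6, 150 in K75-2, 107 in K73-8 and 108 in K75-1, and the 10 genes had a median log2 ratio of -1.03 between the K73 sections and 0.35 between the K75 sections. Their summed level was 372.5 CPM in K73-6 and 896.4 in K75-2, against 698.4 in K73-8 and 768 in K75-1. By this sum the lowest and the highest section both belonged to the set with many choroid plexus spots. Of the 10 genes 9 overlapped. Fosb did not and was lower in both sections of that set, at 8.15 and 10.8 CPM against 17.4 and 18, beside 22.0% of all genes tested. Crym, a thyroid hormone-binding protein gene of deep cortex and striatum, stood apart in the other section, at 43 CPM in K75-2 against 155, 168 and 136 in K73-6, K73-8 and K75-1.

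Septal and basal forebrain genes also differed most within the set. Of 8 compared, 1 (Lhx8) was higher without overlap, beside 11.6% of all genes tested. Another 2 were lower, beside 22.0%, and 5 overlapped, with a median log2 ratio of -0.25 between the sets. All 8 were higher in K73-6 than in K75-2, with a median log2 ratio of 1.66 between these 2 sections. Lhx8, a factor of cholinergic neurons, was at 18.3 CPM in K73-6, 5.57 in K75-2, 4.2 in K73-8 and 4.52 in K75-1. The choline transporter gene Slc5a7 was at 19.8 CPM in K73-6 and 4.48 in K75-2, with 10.5 and 7.21 in K73-8 and K75-1 between them. Calb2, the calretinin gene, was at 44.4 CPM in K73-6 and 11.6 to 17.4 CPM in the other 3 sections.

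**Figure D3:**
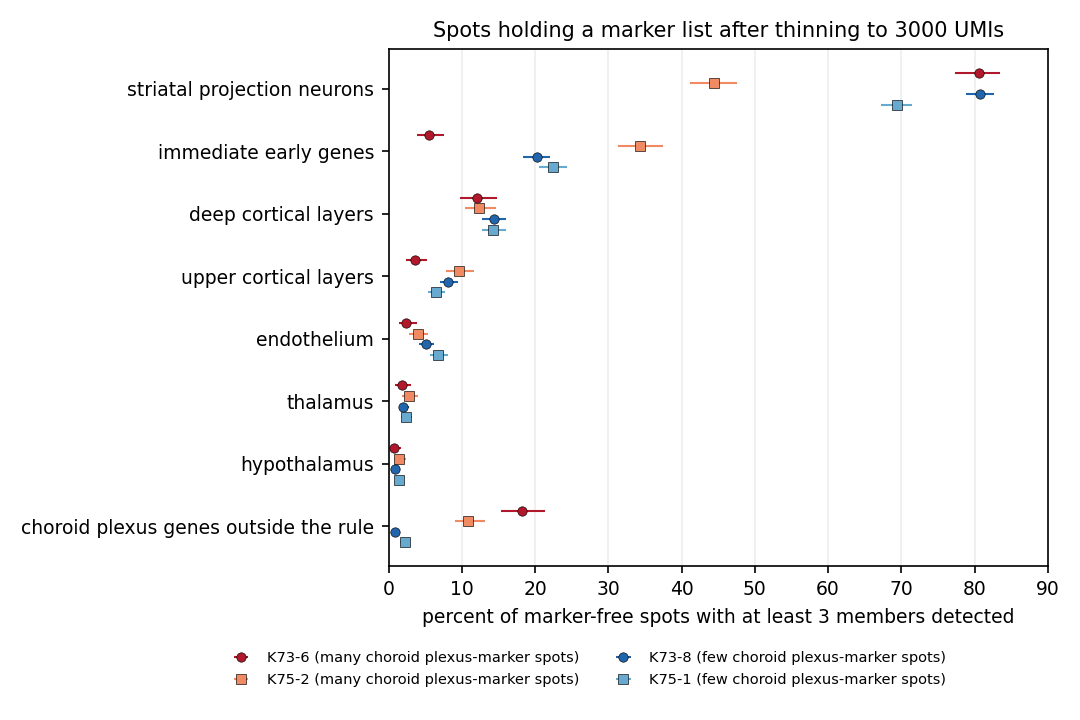
Percent of marker-free spots, each thinned to 3000 UMIs, in which at least 3 members of a list were detected, per section, with exact 95% intervals that cover counting error only. The choroid plexus genes outside the filter put both warm points above both blue points, the striatal share is lowest in K75-2, and the upper layer and immediate early shares are lowest in K73-6.

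Most transcripts of Gh and Prl came from 1 section. Gh, growth hormone, had 346 UMIs in K75-2 and 16, 2 and 4 in K73-6, K73-8 and K75-1, and Prl, prolactin, had 696 UMIs in K75-2 and 8, 3 and 7 in the others. Both met the 2-fold criterion although K73-6, with 1.69 CPM of Gh and 0.846 of Prl, was far nearer to the sections with few choroid plexus spots than to K75-2 at 25 and 50.3 CPM. In K75-2 either hormone was detected in 337 of 1008 spots (33.4%), and both in 106. In the other sections 16, 5 and 11 spots held either. On a list of 11 anterior pituitary genes that was added after these values were seen, Cga, the common subunit of the glycoprotein hormones, had 1.3 CPM in K75-2 and at most 0.106 elsewhere, and the lineage factors Pou1f1 and Pitx1 had 0 UMIs in all 4 sections. Pomc, shared by pituitary and hypothalamus, was at 17.6 CPM in K75-2 and 6.24 to 9.73 in the others. With all spots kept it was at 21.4 CPM in K75-2 and at 17.4 in K75-1. Myl1, a myosin light chain gene of skeletal muscle, was the last gene called higher, at 3.7 and 2.39 CPM against 0.751 and 0.789. These values rest on 35, 33, 22 and 15 UMIs. It was no longer called when spots with Tmem72, Otx2 or Sostdc1 were left out as well. A call there needed 100 UMIs in the spots kept, and Myl1 had only 105 before, so this loss need not mean a narrower gap.

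The 4 genes called lower had 321 (Igkc), 190 (Igha), 136 (Prdm12) and 350 (Shisa2) UMIs over the 4 sections. The immunoglobulin genes Igkc and Igha, made by plasma cells, had 2 and 6 UMIs and 2 and 2 UMIs in K73-6 and K75-2. In K73-8 they had 289 and 163 UMIs, of which 218 and 111 came from the single richest spot of each gene, and in K75-1 they had 24 and 23. Prdm12, a transcription factor of sensory and some hypothalamic neurons, was at 1.16 and 0.145 CPM against 2.49 and 2.63, from 11, 2, 73 and 50 UMIs. It was also no longer called when spots with Tmem72, Otx2 or Sostdc1 were left out. Shisa2, an inhibitor of Wnt and FGF signalling, was at 2.12 and 2.75 CPM against 5.8 and 6.42, from 20, 38, 170 and 122 UMIs. Among genes next to the threshold, 2900060B14Rik was just under it in the higher direction (4.23 and 3.47 CPM against 1.5 and 1.74), and Fzd5 (1.06 and 1.01 against 2.12 and 2.1) and the heat shock gene Hspb1 (11.4 and 11.7 against 22.5 and 24.2) were just under it in the lower direction.

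**Figure D4:**
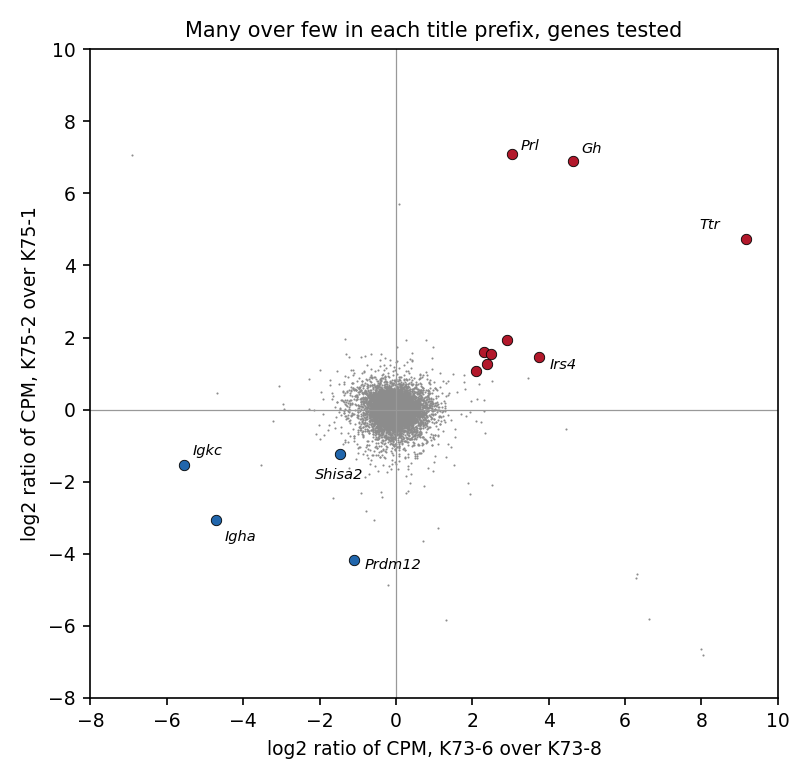
Log2 ratio of CPM between K73-6 and K73-8 (horizontal) and between K75-2 and K75-1 (vertical) for the 13429 genes tested (grey), with the 9 genes called higher in red and the 4 called lower in blue; unlabelled red points are Ecrg4, Myl1, Sostdc1, AW551984 and Agt. Most genes lie near 0 on both axes, and the grey points far to the lower right and upper left include the sex-linked genes, which cross the sets.

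The lists of mitochondrially encoded, endothelial and astrocyte genes each had a small median log2 ratio of the same sign in both pairs of sections. This was not particular to them. Between the K73 and the K75 sections the medians were -0.71 and -0.38 for leptomeningeal fibroblast genes and -0.35 and -0.34 for neuroblast genes. They were -0.20 and -0.07 for microglial genes, 0.11 and 0.35 for habenular genes, and 0.64 and 0.12 for regional astrocyte genes. All 13 mitochondrially encoded genes were higher without overlap, with a median log2 ratio of 0.24, beside 11.6% of all genes tested. The steepest was mt-Atp8, an ATP synthase subunit, at 647 and 568 CPM against 425 and 392. The share of all UMIs held by these genes moves with RNA quality and tissue type, and its part in the other differences was not tested. Of 10 endothelial genes 7 were lower without overlap and 3 overlapped, beside 22.0% of all genes tested, with a median log2 ratio of -0.31. Slco1c1, a thyroid hormone transporter gene of brain capillaries, was at 27.9 and 29.8 CPM against 39.1 and 39.6. With all spots kept, the levels of Slco1c1, which the choroid plexus also expresses, were 35.4 and 34.9 CPM against 37.8 and 38.8, and the median log2 ratio of the list was -0.28. Of 10 astrocyte genes 7 were lower without overlap, beside 22.0% of all genes tested, and 2 overlapped. The other was higher (Sox9, at 14.8 and 15.3 CPM against 14.6 and 14.6), beside 11.6%. Their median log2 ratio was -0.15, and Aldoc, aldolase C, was at 761 and 797 CPM against 866 and 929.

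Genes of mature oligodendrocytes, the lineage the study is about, did not separate the sets. All 12 oligodendrocyte genes overlapped, and Mbp, myelin basic protein, was at 1960 CPM in K73-6, 1480 in K75-2, 1220 in K73-8 and 1860 in K75-1. Their median log2 ratio was 0.71 between the K73 sections and -0.23 between the K75 sections. Of 8 genes of oligodendrocyte progenitor cells (OPCs) 2 were higher without overlap, beside 11.6% of all genes tested, and 6 overlapped. All 8 log2 ratios were above 0, from 0.08 to 0.33, with a median of 0.19. The 2 without overlap were Pdgfra, the growth factor receptor gene of these cells, at 27.9 and 33.6 CPM against 27.8 and 23.9, and C1ql1, which encodes a secreted C1q-like protein, at 19 and 16.5 against 13.8 and 14.5. After thinning to 3000 UMIs, at least 3 OPC genes were found in 1.2% and 1.05% of spots against 0.484% and 0.923%. The exact intervals of K73-6 (0.518 to 2.34%) and K75-1 (0.539 to 1.47%) overlapped. With at least 2 genes the shares were 7.17% and 6.2% against 4.62% and 4.07%. With at least 4 they were 0% and 0.315% against 0.0538% and 0.163%. After thinning to 5000 UMIs, at least 3 were found in 3.61% and 3.1% against 1.84% and 2.17%. Without thinning, at least 3 were found in 17.7% and 19.2% against 18.3% and 7.36%. Depths were then unequal, with a median of 8748 UMIs per spot in K75-1 and 14823 in K73-8. The first set was thus higher after thinning with at least 2 or 3 genes, and not with at least 4 or without thinning. Nf1 itself was at 7.09 and 5.93 CPM against 5.53 and 5.79, from 67, 82, 162 and 110 UMIs, and its sets were 1.025-fold apart at their closest. Genes of ependymal cells, which line the same ventricles, took a direction that depended on the spots kept and on the pair of sections. In the marker-free spots 4 of the 9 compared were lower without overlap, beside 22.0% of all genes tested, and 1 was higher, with a median log2 ratio of -0.39 that was -0.02 between the K73 sections and -0.82 between the K75 sections. With all spots kept the median, which then also took in the 1 list gene left out before, was 0.54, but the pairs went opposite ways. All the ependymal genes were then higher in K73-6 than in K73-8, and all except Mia were lower in K75-2 than in K75-1. Foxj1, for example, was at 10.8 CPM in K73-6 and 4.41 in K73-8, and at 5.3 in K75-2 and 5.77 in K75-1.

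**Figure D5:**
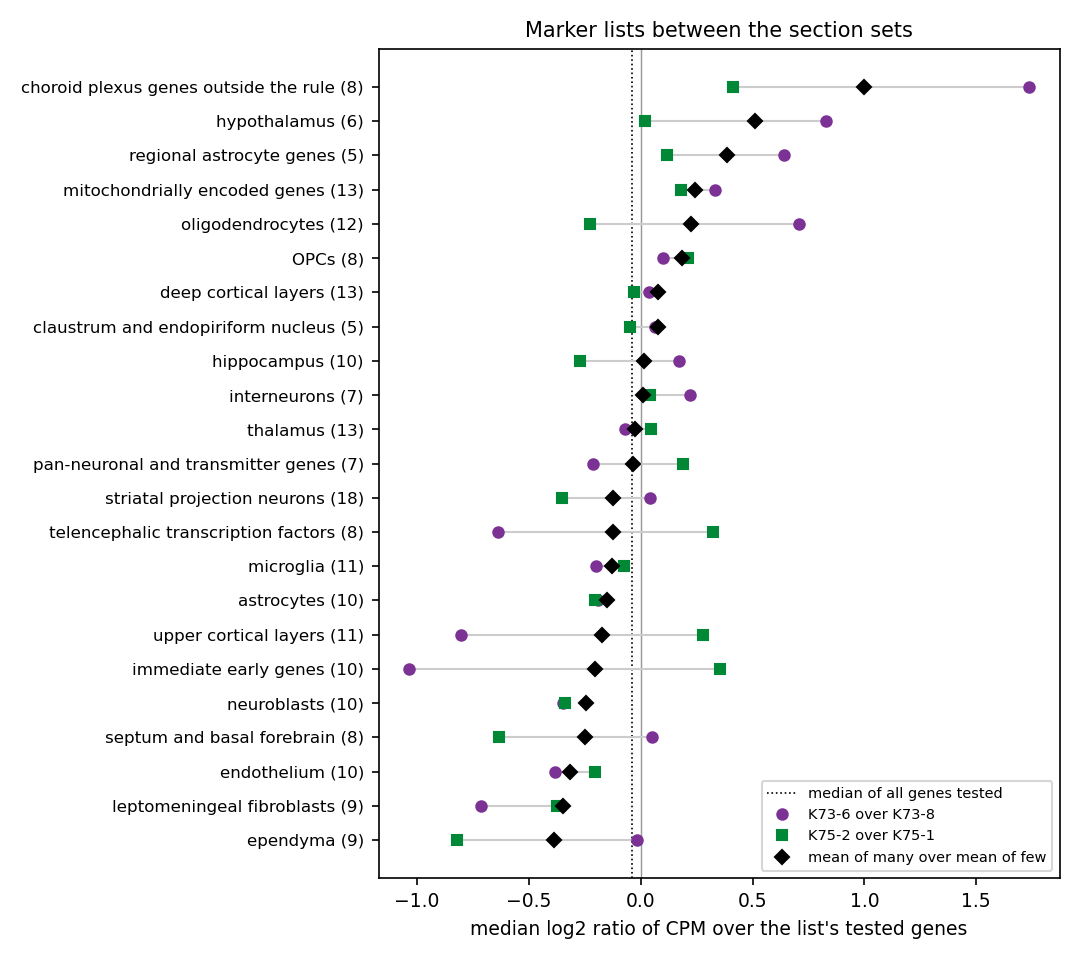
Median log2 ratio of CPM, many over few choroid plexus-marker spots, over the tested genes of each marker list with at least 5 of them (number in brackets): means of the sets (black diamonds), K73-6 over K73-8 (purple circles) and K75-2 over K75-1 (green squares). The dotted line is the median of all genes tested, -0.04. Among others, choroid plexus genes and mitochondrially encoded genes lie right of it in both pairs. Endothelial, astrocyte, leptomeningeal fibroblast, neuroblast and microglial genes lie left in both. The upper layer, immediate early and oligodendrocyte lists change side between the pairs.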

How the data were processed

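Gene-by-spot UMI counts of 4 Visium sections were used as deposited. The authors cut fresh frozen brain, made 10x Genomics Visium libraries and, per the file headers, counted UMIs with Space Ranger 1.3.1; the build mm10 comes from the submitters' processing notes, and the annotation is not given in the sources used here. Each section was a separate sample of the genotype Nf1+/-, and no label states which animal it came from. The sections of each set had opposite patterns of Xist and Ddx3y, and so did the sections that share a title prefix. The spread within a set or a prefix was therefore between different animals, and its technical part was not tested. Whether sections of the same pattern share an animal was not stated. No columns were left unmapped, and no 2 sections were the same library, since their counts differed by a chi-square of 10.9 to 24.2 per degree of freedom. Spot barcodes recur on every Visium capture area and 427 to 1989 were shared between pairs of sections.

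Spots with at least 500 UMIs and 0 UMIs of the 7 filter genes were summed per section and scaled to CPM (Python 3.11.15, numpy 2.4.6, scipy 1.17.1, pandas 2.3.3). Genes with at least 100 UMIs in all were compared, a count of 0 in the lower set was set to 3 UMIs, and a gene was called when the sets were at least 2-fold apart at their closest. The section sets, the 31 marker lists and the rules were chosen with earlier results of these data known. Genes were named as all members of those lists, up to 15 called genes with the widest gap in each direction, and 5 genes the study names; genes next to the threshold and the pituitary list were chosen after their values were seen. Marker-free spots with at least 3000 UMIs were thinned to 3000 for shares of spots with at least 3 members (Clopper-Pearson 95% intervals). No doublet caller was run on spots. edgeR 4.0.16 and DESeq2 1.42.0 served as alternatives in R 4.3.3. All calls were also run on simulated counts with the same spread for every gene. That setting is unlike these sections, so it does not measure the error of the calls here. Alternatives changed the scaling, the gene filter, the spots, the gap, the model and the sections kept.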

Additional observations from a re-analysis of the deposited data

Results flagged for a closer look

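A set of 52 genes named in the text, each with at least 100 UMIs, was looked at, and other genes named in the text were not. In 4 of the 52, 1 section lay far from the other 3, judged by its gap to the nearest section as a share of the whole range (Dixon's criterion). In genes not chosen on their values, chance alone would give about 1 in 20 groups such a gap, or 2.6 of 52. The genes named here were chosen with results of these data known, so that number is only a reference. Prl in K75-2 took 0.985 of the range (50.3 CPM) and Gh in K75-2 took 0.935 (25 CPM). Lhx8 in K73-6 took 0.903 (18.3 CPM), and Igkc in K73-8 took 0.891 (9.86 CPM). Among these, Gh, Prl and Igkc were genes called at least 2-fold apart between the sets, so the size of each of these differences rested on 1 section.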

How the results depend on the processing

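The count of genes at least 2-fold higher (9) became 45 with a filter of 20 UMIs, 143 with none and 5 with 400 UMIs. It became 29 at a 1.5-fold and 3 at a 3-fold gap, and 115 within the K73 and 63 within the K75 sections. With all spots it became 49, a count that includes filter genes on which the sets were chosen. The count of genes lower (4) became 28, 34 and 0 under the same filters, 36 and 1 under the same gaps, 8 in spots with at least 5000 UMIs, 7 with equal weight per spot, 7 with 6 filter genes without Clic6 (chosen after seeing the data), and 159 within K73 and 132 within K75. Leaving out 1 section gave 23 (K73-8) to 44 (K75-2) genes higher and 19 (K75-1) to 83 (K75-2) lower, since fewer sections must agree. edgeR without a block called 0 of 15011 genes (556 at an unadjusted p under 0.05, against 263 by DESeq2), edgeR with the title prefix as a block called 2 higher (Gh and Prl) and 0 lower, and DESeq2 called 12 higher and 6 lower. These models take as given the sets that measured values chose, so their counts are given as alternatives and lend no weight to a call. Genes without overlap, which were counted under the alternatives only after seeing the data, numbered 2636 higher with no filter, 5108 higher and 8321 lower within K73, 6522 higher and 6907 lower within K75, and 3182 to 4175 higher and 4636 to 6320 lower with 1 section left out. Ttr, Gh, Ecrg4, Irs4, AW551984 and Igha were at least 2-fold apart under all 7 choices of spots and scaling, and Prl under 4 of them. Leaving out spots with Tmem72, Otx2 or Sostdc1 as well lost Agt, Myl1, Prdm12 and Sostdc1 (itself a filter gene there). A gene that fell under 100 UMIs in the spots kept was counted as lost too. Equal weight per spot lost Prdm12 and Igkc, and keeping all spots lost Shisa2 and Prl.

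Without 1 section the striatal median log2 ratio ranged from -0.43 to 0.084, the thalamic from -0.18 to 0.12 and the hypothalamic from -0.18 to 0.70. The upper layer median ranged from -0.54 to 0.22 and the choroid plexus median from 0.38 to 1.43. With all spots the choroid plexus median was 2.89, but not over the same genes. The 6 list genes under 100 UMIs in the marker-free spots then passed the filter. Among them, Cldn2 was at 8.31 and 2.8 CPM against 0.0811 and 0.0909, so it passed through the sections chosen for their plexus. The difference in the hypothalamic spot share, -0.08 percentage points, became 5.41 without thinning, 0.24 at 5000 UMIs and 0.44 with at least 2 members. No value of a called gene changed sign under any alternative run. For runs that left out a section or kept 1 title prefix this was fixed by the call itself, so it lends no weight to a call. TMM moved the median of all genes tested from -0.04 to -0.01. With 2 sections per set, 1 of them with 693 spots, and many regional genes under 100 UMIs, differences under 2-fold were described and not called; the cause of the changes above was not tested.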
